A study of Homo sapiens with 24 samples.

Results

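UCP2 encodes uncoupling protein 2, a carrier of the inner mitochondrial membrane, and was followed here as 1 transcript, ENST00000310473, of the 11396 transcripts listed in either of 2 deposited tables. The tables give transcript IDs without gene names, and the name UCP2 for this ID was given with the choice of the transcript and could not be checked against the files. The transcript was chosen because its footprints were low with the control guide and higher in HNRNPC knockdown cells, so both of those results are given as descriptions without a test, and its change in LM2 cells is tested. The study measured ribosome footprints (mRNA fragments protected by ribosomes) and RNA in MDA-MB-231, a human breast cancer cell line, as 4 cell groups with 3 replicates per assay, 24 libraries in all. Parental cells are labelled poorly metastatic, and their LM2 derivative carries the label of high lung metastasis. In another experiment, sgHNRNPC cells, labelled as a knockdown of HNRNPC, stand beside sgCTRL cells, which carry a control guide; both are poorly metastatic. The HNRNPC protein is found in the nucleus, where it coats newly made transcripts. All groups were grown in high glucose medium with serum to below confluence and lysed in the presence of cycloheximide, which holds ribosomes on mRNA. Neither the culture each replicate came from nor whether a line was 1 clone is given in the labels, so the spread behind each p-value is that of these libraries and may be technical. HNRNPC was not analysed here, so the knockdown rests on its labels.

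Mitochondrial carriers move metabolites or ions across the inner membrane. UCP2 is a member of this family related to the thermogenic protein UCP1, and it is known for effects on mitochondrial oxidant production and on the export of carbon compounds from mitochondria. Its mRNA is found in many tissues, whereas the protein is often scarce and short-lived. The leader of the mRNA, ahead of the coding sequence, holds an upstream reading frame that is known to inhibit translation of the main frame. Ribosomes that translate an upstream frame can leave the mRNA before they reach the main start codon, so that much RNA may give few footprints on the coding sequence. The stated purpose of the study was to compare translation efficiency between the cell lines. Efficiency is taken here as the footprint value of a transcript per 1000 of its RNA value, both in the authors' normalized units.

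UCP2 lies on the minus strand of chromosome 11 at 73974672 to 73983202 (GRCh38.p14, RefSeq), and no other protein-coding gene overlaps it in that annotation. RefSeq lists 8 UCP2 transcripts, and the table of start regions used here holds 2 starts, at 73983202 and 73982843. The letters ATG were searched on the transcribed strand in the 50 bases after each start and were found at 0 of the 2, where 40.2% of all 35116 start regions held them. This says nothing of bases further into the leader. The leader and the protein sequence were not used here. The paralog UCP3, a related carrier, lies 17074 bases away at 74000277 to 74009085, with no protein-coding gene between them. How reads were shared out between transcripts of UCP2, or between similar genes, the sources used here do not say.

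The RNA values were whole multiples of 1 step per library (for 100% of values, with a tolerance of 0.01 steps), the pattern that division of read counts by a library factor leaves. On that reading, the listed transcripts held 26810212 to 52584688 RNA reads per library for parental and LM2 cells and 23344230 to 28334050 for the other table, and UCP2 held 1279 to 4829. No such step was derived for the footprint values, so the number of footprint reads behind a value is unknown. Library totals were 1023095 to 1134509 for the parental and LM2 footprints and 669584 to 753066 for the control guide and knockdown footprints. A transcript was tested or ranked where both its mean RNA value and its mean footprint value over a table's libraries reached 10, as did 9342 transcripts of the LM2 table and 8283 of the knockdown table. UCP2 passed with footprint means of 40.6 and 19.8. In control guide cells alone its mean was under 10, so it passed there through the knockdown cells.

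UCP2 RNA was abundant in parental cells and had lower normalized values in the other 3 groups, of which 2 are in the other table. In these bulk samples, fewer cells with the RNA and less RNA per cell cannot be told apart. In parental replicates 1, 2 and 3 the RNA value was 4583, 4658 and 4630, above 81.1% to 81.7% of tested transcripts. In LM2 replicates it was 1693, 1600 and 1725. Each LM2 library was below each parental library, and UCP2 stood near the middle of all transcripts in LM2 cells, above 51.4% to 54.0% of them. In control guide replicates 1, 2 and 3 the RNA value was 1806, 1547 and 1444. In HNRNPC knockdown replicates it was 2159, 2022 and 2146, so the 2 groups of that table did not overlap.

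Footprints on UCP2 ranged more widely over the groups than its RNA did. In parental replicates 1, 2 and 3 the footprint value was 51.9, 68.2 and 48.2. In LM2 replicates it was 19.2, 25.9 and 30.2, below each parental library. In control guide replicates it was 6.63, 4.13 and 4.33, which was above 0.266% to 2.49% of tested transcripts. Few footprints therefore lay on an RNA of middle abundance in the control guide cells. In knockdown replicates the footprint value was 31.3, 34.3 and 38.1, above 35.1% to 42.3% of transcripts, and no knockdown library overlapped a control guide library. No library had UCP2 footprints at 0.

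**Figure D1:**
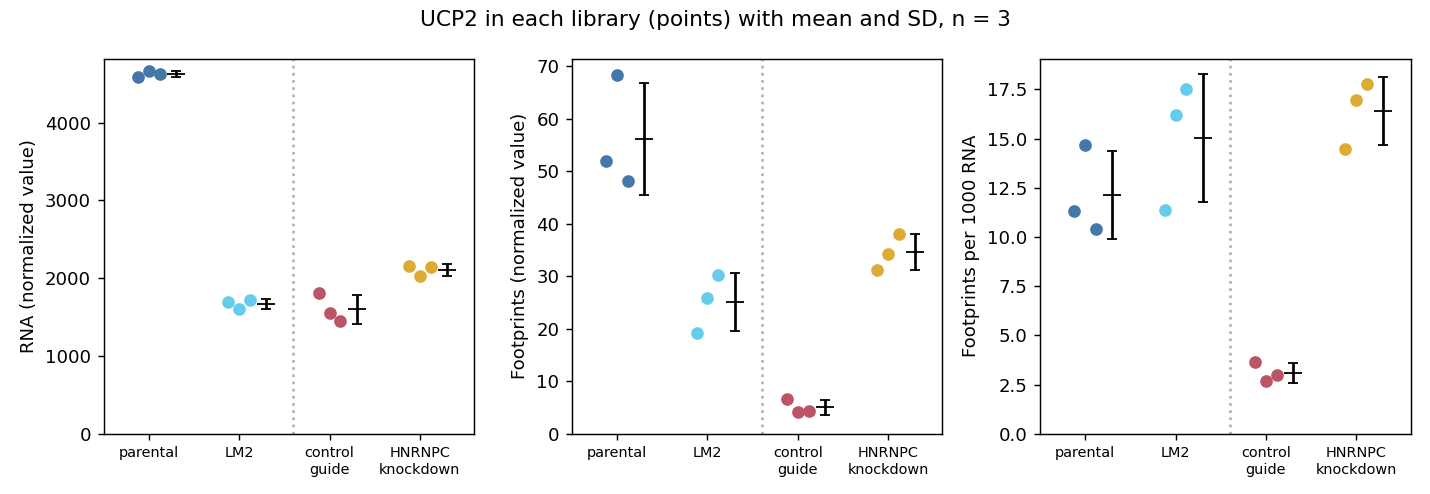
UCP2 RNA value, footprint value and footprints per 1000 RNA (vertical axes, authors' normalized units) in each library of the 4 cell groups, with footprints and RNA paired by replicate number in the right panel. Points are libraries and the bars beside them mean ± SD (n = 3); the dotted line parts the separately normalized tables, and the 3 control guide libraries, at 2.67 to 3.67 footprints per 1000 RNA, lie below all others.

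Efficiency of UCP2 was below that of the median transcript in all 12 pairs of libraries, and lowest in control guide cells. Footprints and RNA were paired by replicate number for these values. In parental replicates 1, 2 and 3 there were 11.3, 14.7 and 10.4 footprints per 1000 RNA. LM2 replicates had 11.4, 16.2 and 17.5, a range that overlapped the parental one. Control guide replicates had 3.67, 2.67 and 2.996, and knockdown replicates had 14.5, 17.0 and 17.8. In order, the means were 3.11 ± 0.508 in control guide, 12.1 ± 2.23 in parental, 15.0 ± 3.25 in LM2 and 16.4 ± 1.71 in knockdown cells (SD, n = 3). Parental and LM2 values overlapped, LM2 and knockdown values overlapped, and the highest parental value was above the lowest knockdown value. The control guide values overlapped those of no other group. This order sets levels side by side across tables that were normalized separately.

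Against the median transcript, UCP2 stood near the very bottom in control guide cells and in the lower part of the range in the other groups. The median tested transcript had 42.5 footprints per 1000 RNA in parental, 43.6 in LM2, 35.7 in control guide and 37.8 in knockdown cells. UCP2 was 3.50-fold below that median in parental cells, 2.90-fold below it in LM2 cells, 11.4-fold below it with the control guide and 2.31-fold below it in knockdown cells. Ranked from the lowest efficiency, it was number 499 of 9342 in parental cells, 784 of 9342 in LM2 cells, 31 of 8283 in the control guide cells and 1049 of 8283 in knockdown cells. The working name of the transcript, translation repressed at baseline, was given with its choice, and these ranks do not test it. The place of UCP2 differed between the 2 baselines. In the parental cells UCP2 had more efficiency than 5.33% of transcripts, and in the control guide cells more than 0.362%. The filter bears on the control guide rank, since transcripts with few footprints in both groups of a table were left out. Among all 10767 listed transcripts UCP2 was number 119 in control guide cells, above 1.10% of them.

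**Figure D2:**
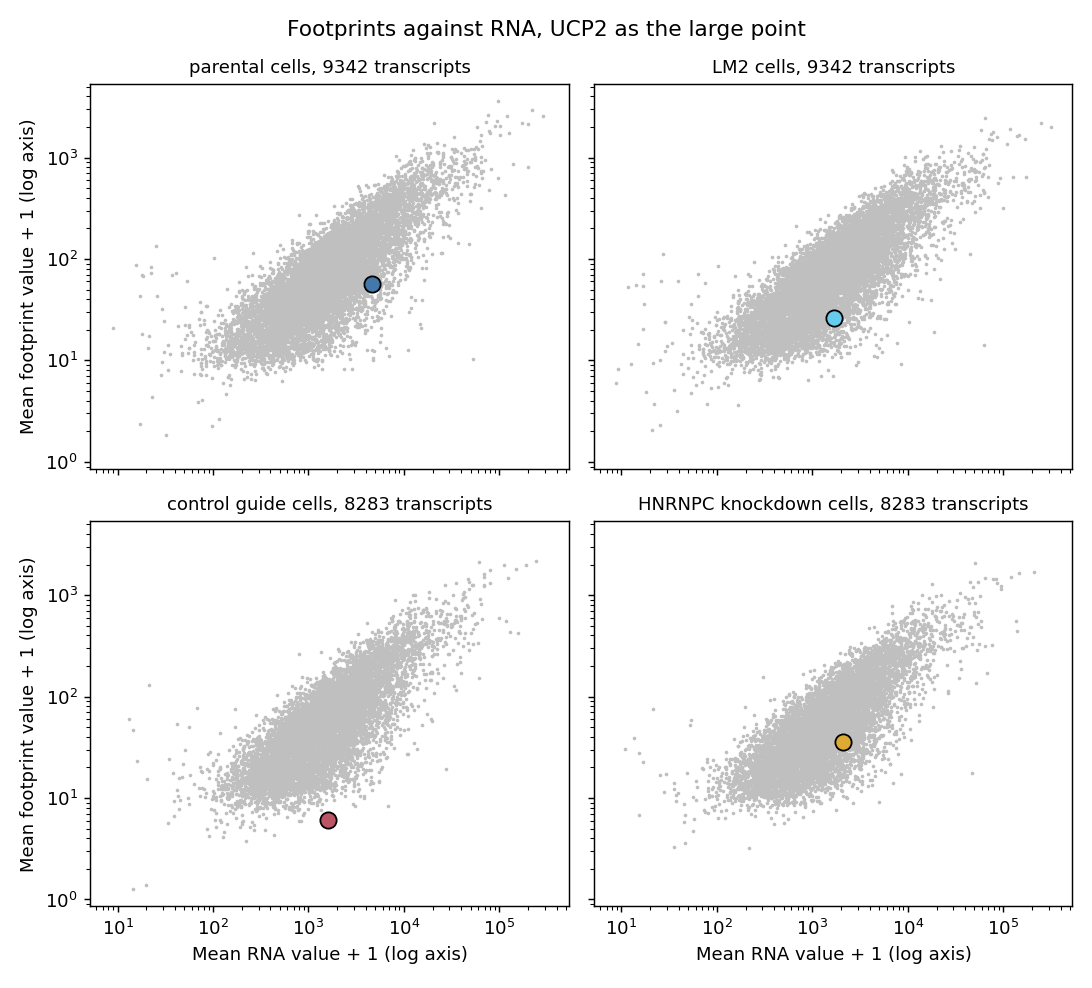
Mean footprint value + 1 against mean RNA value + 1 (both log axes, normalized units) for the transcripts tested in each of the 4 cell groups, as grey points. The large point is UCP2, which lies inside the lower part of the cloud in parental, LM2 and knockdown cells and at its lower edge in control guide cells.

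Transcripts with an RNA value within 20% of that of UCP2 give a closer reference. In parental cells 833 such transcripts had a median footprint value of 141, against a UCP2 mean of 56.1 ± 10.7 (SD, n = 3), and 88 of them (10.6%) were less efficient than UCP2. In LM2 cells the median of 1269 such transcripts was 70.5, against 25.1 ± 5.54, and 97 (7.64%) were less efficient. In control guide cells the median of 1230 such transcripts was 51.2, against 5.03 ± 1.39, and 0 of the 1230 were less efficient. Without the filter on low values, 24 of 1297 (1.85%) were. In knockdown cells the median of 1114 such transcripts was 68.4, against 34.6 ± 3.43, and 195 (17.5%) were less efficient. UCP2 thus stood between the 5th and 95th percentile of transcripts of like RNA level in 3 groups by its mean, and below the 5th in control guide cells, with footprints 10.2-fold under their median. These are ranks of 1 transcript chosen for its low value, and they carry no test.

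**Figure D3:**
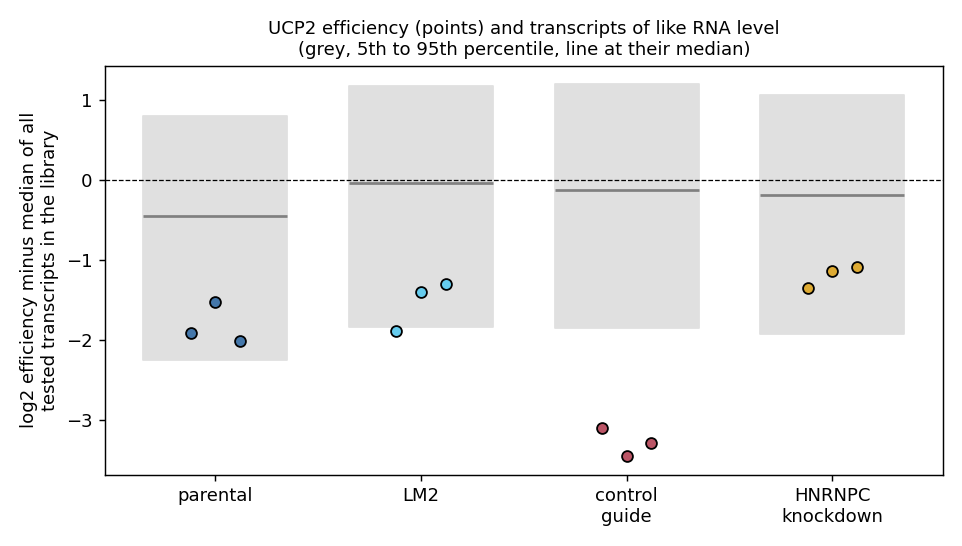
log2 efficiency of UCP2 minus the median of all tested transcripts in the same library (vertical axis), for 3 libraries in each of 4 cell groups, with footprints and RNA paired by replicate number. Grey boxes span the 5th to 95th percentile, and grey lines mark the median, of transcripts with an RNA value within 20% of that of UCP2; the control guide points, at -3.46 to -3.11, lie below their box.

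In the LM2 comparison, UCP2 RNA and footprints both fell and efficiency did not pass the test. The mean RNA value went from 4623 ± 38.1 in parental cells to 1673 ± 64.7 in LM2 cells (SD, n = 3), 2.76-fold lower. The log2 change was -1.47 ± 0.05 (SE, limma adjusted p = 1.08e-15), lower in 3 of 3 LM2 libraries. RNA passed the test as lower for 30.8% of the 9342 transcripts, and UCP2 had the 59th lowest RNA change of them. The footprint value went from 56.1 ± 10.7 to 25.1 ± 5.54, 2.23-fold lower. Its log2 change was -1.13 ± 0.20 (SE, limma adjusted p = 6.14e-05), where 14.5% of transcripts passed as lower, and UCP2 had the 97th lowest change. The efficiency change was 0.33 ± 0.20 on the log2 scale, with a 95% interval of -0.08 to 0.74 (limma, adjusted p = 0.483). Efficiency passed as higher for 0.471% of transcripts, and the median change of all was 0.04. UCP2 ranked number 1031 of 9342 in efficiency change, counted from the highest, above 89.0% of transcripts. The interval of this fit holds both no change and a clear rise, so the data do not show that efficiency stayed the same. An exact permutation test over the 3 against 3 replicates, two-sided, gave p = 0.2 for efficiency, and 0.1 for RNA and for footprints, the smallest p that 3 against 3 allows.

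Other transcripts with such an RNA fall in LM2 cells give a reference for the UCP2 footprints. In 50 other transcripts whose RNA change was within 0.2 of that of UCP2 on the log2 scale, the median footprint change was -1.14, and footprints passed the test as lower for 48. Their median efficiency change was 0.27, and 23 of the 50 had a larger one than UCP2. In the 58 transcripts whose RNA fell further than that of UCP2, the median efficiency change was 0.38, and 34 had a larger one than UCP2. Both sets were chosen by their RNA change in the same libraries, which also enters the efficiency change, so they carry no test.

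In the HNRNPC knockdown comparison, UCP2 footprints were far higher in knockdown cells while its RNA was somewhat higher. Mean RNA was 1599 ± 187 with the control guide and 2109 ± 75.5 in knockdown cells (SD, n = 3), a ratio of 1.32. The mean footprint value was 5.03 ± 1.39 and 34.6 ± 3.43, a ratio of 6.87. On the log2 scale with 1 added to each value, the footprint change was 2.58 ± 0.32, the RNA change 0.40 ± 0.07 and the efficiency change 2.17 ± 0.22 (SE, limma fits). The efficiency fit used 1 spread for both assays. With a separate spread for each assay, the SE of the efficiency change was 0.32. The efficiency change was thus the larger part of the footprint change, which is the sum of the RNA and efficiency changes. The median RNA change of all 8283 transcripts was -0.10, and with that median set to 0 the UCP2 RNA change was 0.51. Among 8283 transcripts UCP2 ranked number 2 in efficiency change, number 9 in footprint change and number 1215 in RNA change, counted from the highest. UCP2 entered these ranks through the knockdown cells, since its control guide footprint mean was under 10. Its efficiency change was above 99.976% of the tested transcripts. It was above 99.954% of all 10767 listed transcripts without the filter, and above 99.964% of the tested ones with 5 added to each value. Efficiency passed as higher for 3.72% of all transcripts in this comparison (308 as deposited, 164 after TMM scaling and 123 with the median change set to 0), and nothing is read from that here, since UCP2 was chosen for it. The transcript ranked just above it in efficiency change rose by 2.42 and the one just below by 1.86. The size of the change depended on the low control guide footprints, and was 1.58 with 5 added to each value.

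**Figure D4:**
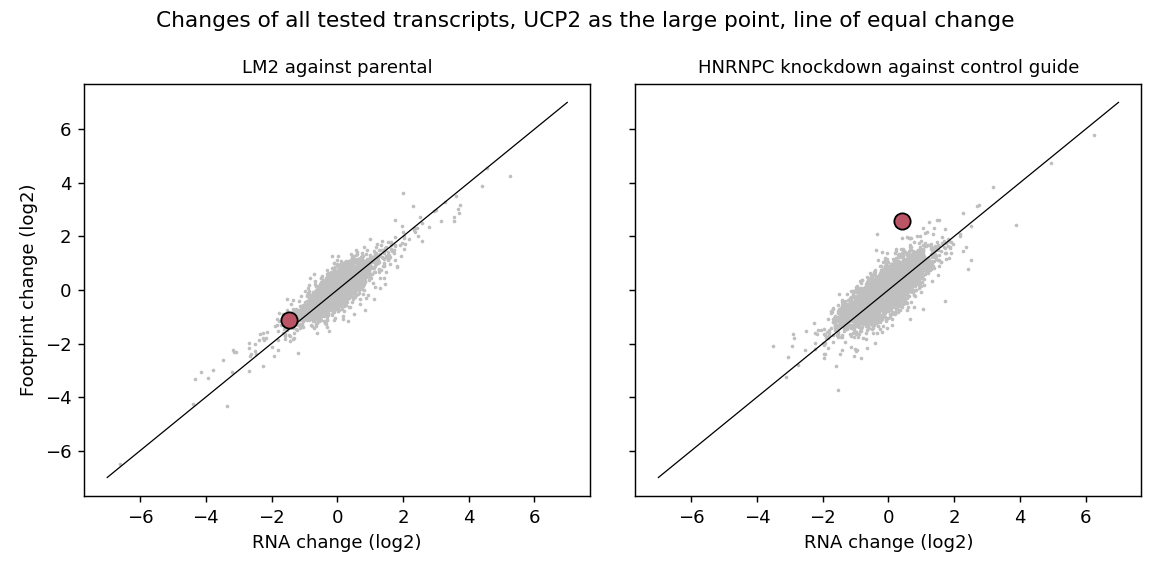
Footprint change against RNA change (log2, both axes) of all transcripts tested in each experiment, with UCP2 as the large point and the line of equal change. UCP2 lies close to the line in LM2 cells, at -1.47 in RNA and -1.13 in footprints, and well above it in knockdown cells, at 0.40 and 2.58.

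The 2 baselines were then set side by side. Both are poorly metastatic MDA-MB-231 cells, but they come from different experiments and tables, so these differences have no test. Efficiency in each group was taken relative to the median of the 8171 transcripts tested in both tables. On this scale UCP2 was at -1.84 in parental, -1.54 in LM2, -3.28 in control guide and -1.20 in knockdown cells (log2). The control guide value was 2.72-fold below the parental one, the 51st lowest such difference of 8171 transcripts, whose differences had an SD of 0.37 on the log2 scale. Over all 10623 listed transcripts it was the 196th lowest. The knockdown value was 1.56-fold above the parental one, a difference higher than that of 97.4% of the 8171 transcripts. It was 1.27-fold above the LM2 one, higher than for 86.0% of them. UCP2 was chosen for its low control guide footprints, so its low place there is part of the choice. On this scale the knockdown value of UCP2 was nearer to the parental and LM2 values than its control guide value was. That order follows in part from the choice, so nothing further is read from it.

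As a share of all footprints, UCP2 was likewise lowest in control guide cells. Out of every 1000000 of the footprint total over the 10623 transcripts listed in both tables, UCP2 had 50.3 ± 10.2 in parental, 24.3 ± 5.85 in LM2, 6.80 ± 1.75 in control guide and 49.5 ± 2.99 in knockdown cells (SD, n = 3). Parental and knockdown cells overlapped on this measure, and control guide cells were below every library of the other groups. Its RNA share followed another order. Out of every 1000000 of the RNA total, UCP2 had 137 ± 1.73 in parental, 51.6 ± 2.26 in LM2, 60.7 ± 6.64 in control guide and 89.1 ± 3.68 in knockdown cells. The groups did not overlap in RNA share, which was highest in parental and lowest in LM2 cells. LM2 cells thus had a smaller RNA share but a larger footprint share of UCP2 than control guide cells. The RNA shares of these groups lay close, with LM2 replicate 3 at 53.3 and control guide replicate 3 at 54.8. The groups come from different experiments that were normalized separately, and UCP2 was chosen for its low control guide footprints, so this difference has no test.

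The 2 transcripts with the most similar efficiency over the 4 cell groups were named by a rule that used these same values, so that their low control guide values are part of the choice. Similarity was the Euclidean distance of log2 efficiency over the 4 group means, among 8170 other transcripts, with a median distance of 4.25. The nearest, ENST00000326674 at 0.966, had 12.9 ± 4.41 footprints per 1000 RNA in parental, 14.8 ± 1.01 in LM2, 6.47 ± 1.42 in control guide and 13.8 ± 1.89 in knockdown cells (SD, n = 3). The other 3 groups lay close together, within their spread. The next, ENST00000487273 at 1.01, had 18.2 ± 1.05, 17.5 ± 3.22, 5.16 ± 0.910 and 11.3 ± 2.25 in the same order of groups. Its knockdown value stayed below its parental one, unlike that of UCP2. Its efficiency change in knockdown cells was 1.03, against 1.05 for the nearest and 2.17 for UCP2. Like UCP2, both had a mean footprint value under 10 in control guide cells, 8.45 ± 1.99 and 9.36 ± 2.36, and passed the filter through the knockdown cells, at 12.6 ± 1.88 and 25.3 ± 4.47 (SD, n = 3). The files do not pair these IDs with gene names, and the genes of the mitochondrial carrier family and other mRNAs with upstream reading frames were not analysed here for the same reason.

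Transcripts with a parental efficiency at or below that of UCP2 were looked at in the knockdown experiment, whose libraries are not shared with the parental ones. The 372 other such transcripts tested in both tables had a median efficiency change of 0.20 in knockdown cells on the log2 scale, against 0.09 for all 8171. Efficiency passed the test as higher for 31 of them (8.33%) and as lower for 7, where 3.72% of all transcripts tested in the knockdown table passed as higher and 1.74% as lower (limma, adjusted p under 0.05). The filter bears on these counts. A transcript with a footprint mean under 10 in control guide cells could enter only through the knockdown cells, and the reverse. These counts also depended on the scaling. After TMM scaling 17 of the 372 passed as higher and 8 as lower, against 164 and 202 of all 8283, and with the median change set to 0 they were 15 and 9, against 123 and 207. After quantile normalization they were 16 and 16, against 205 and 282, so that the balance of calls over all transcripts turned to lower under each of these scalings. As deposited, the change was above 1 on the log2 scale for 7 of the 372 (1.88%) and for 58 of the 8171 (0.710%). The 372 included the transcript with the largest change, 2.42, which ranked just above UCP2.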

How the data were processed

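RNA and ribosome footprints of 4 MDA-MB-231 cell groups were analysed from 2 tables. Each table holds a signal per transcript that the authors had normalized before they deposited it. The tools named in the submitters' processing notes are Bowtie2 2.3.5, cutadapt 2.3, SAMtools and UMI-tools, and the build is hg38. How reads were counted and scaled, and with which annotation, is not given in the sources used here. Columns named for the parental line alone were read as the parental samples. Of 11396 transcript IDs, 0 matched the gene name tables. Values were taken as log2(value + 1), which understates changes of low values. Changes were fitted with limma 3.58.1 in R 4.3.3 over all transcripts with a mean of at least 10 in both assays (variance trend, two-sided, Benjamini-Hochberg over all tested, threshold 0.05), within a table. Efficiency change was the interaction of assay and cell group over 12 libraries. Exact permutation tests used SciPy 1.17.1. The fits were tested on simulated data. No pair of columns was identical. Efficiency per library paired footprints and RNA by replicate number. The transcript, the lists, the tests and the rule for named transcripts (UCP2 in every library and the 2 most similar by ID) were chosen with earlier results of these data known. Alternatives were other pseudocounts, filters, scalings, variance models, blocks and leaving out each replicate. The gene lists and cell type markers drawn up were not used, since no ID matched a gene name.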

Additional observations from a re-analysis of the deposited data

How the results depend on the processing

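In LM2 cells the RNA and footprint changes of UCP2 passed the test, and the efficiency change did not, in each of the alternatives run with a test. The efficiency change ranged from 0.22 to 0.52 (limma, adjusted p from 0.185 to 0.800), the RNA change from -1.49 to -1.42 and the footprint change from -1.27 to -0.96. In knockdown cells the efficiency change was 1.58 and the footprint change 1.99 with a pseudocount of 5, and the other alternatives gave 1.98 to 2.28 and 2.48 to 2.76; a pseudocount of 5 lies near the control guide footprint values themselves. With minimum means of 50 in RNA and 20 in footprints UCP2 was not among the knockdown table's transcripts, so this gave no value. Its percentile of efficiency in control guide cells was 0.362, 1.10 without a filter and 1.01 with a pseudocount of 5, and in knockdown cells 12.7, and 16.6 without a filter, which adds transcripts with few footprints. Same-numbered libraries had correlations of their deviations from -0.20 to 0.13. In none of 8 pairs of library sets did every library correlate best with its own number. Between cell groups, replicate numbers did not pair the samples. Between footprints and RNA of the same cells, the highest same-numbered correlation was above the highest other-numbered one in each group. These were 0.06 against 0.01 in parental, 0.11 against 0.04 in LM2, 0.13 against 0.03 in control guide and 0.07 against 0.02 in knockdown cells. Footprints and RNA of 1 number may thus be weakly paired. With the replicate number as a block, the UCP2 efficiency change in LM2 cells was 0.33 (limma, adjusted p = 0.484), and calls over all transcripts went from 44 higher and 108 lower to 11 and 32 in LM2 cells, and from 308 and 144 to 109 and 74 in knockdown cells. With footprints and RNA paired by number, as if from 1 lysate, limma called 0 and 0 in LM2 cells and 36 and 39 in knockdown cells. In LM2 cells 1078 transcripts then had an unadjusted p under 0.05, and UCP2 had a limma adjusted p of 0.563. The labels do not say that libraries of 1 number share a lysate. Under TMM scaling, quantile normalization and median centring the knockdown calls were 164 and 202, 205 and 282, and 123 and 207, so that the balance turned. Leaving out replicates for the ranks, the alternatives of the permutation test, the scalings of the list with low parental efficiency and the ranks without a filter among transcripts of like RNA level were chosen after the data were seen. Footprint depth in reads is unknown, which limits the control guide values most.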
